A study of Mus musculus with 2 samples.

Results

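The genes described are 10 members of the epidermal growth factor (EGF) family and its receptors, 7 ligands (Egf, Tgfa, Areg, Ereg, Hbegf, Btc and Epgn) and 3 receptors (Egfr, Erbb2 and Erbb3), chosen by symbol from the 23183 genes of the deposited table. Each of the 10 symbols matched 1 row. RNA was measured by RNA-seq in 2 libraries of neonatal epidermis, 1 from wild-type C57BL/6 mice (WT) and 1 from C57BL/6 mice homozygous for the Foxn1 allele L19M (L19M), with no further allele or treatment named in the labels. Foxn1 encodes a forkhead factor of keratinocytes, and the design text asks about keratinocyte function with and without the L19M change. How many pups were used, and their sex and exact age, the sources used here do not say.

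EGF family ligands are made as membrane-anchored precursors, cut loose by metalloproteases, and bind receptor tyrosine kinases that pair up and switch on the Ras-MAPK and PI3K pathways. In epidermis this system drives keratinocyte growth, migration and wound healing and shapes the hair follicle. Mice lacking Tgfa, or carrying the weak Egfr allele waved-2, have wavy hair. Egfr binds all 7 ligands, Erbb2 binds none and acts as a partner, and Erbb3 has little kinase activity and binds neuregulins.

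The EGF family ligands share a stretch of 6 cysteines that folds into the receptor-binding domain, which the choice by symbol did not use. In the mouse coding sequences of GENCODE M21 (GRCm38), for the transcript of the deposited table, 6 of the 7 ligands were searched and each had 1 stretch of this spacing; the Hbegf sequence is not analysed here. The lines give its codons 5′ to 3′, with the 6 cysteine codons in capitals, so that the shared frame and the differing bases between can be compared.
Areg: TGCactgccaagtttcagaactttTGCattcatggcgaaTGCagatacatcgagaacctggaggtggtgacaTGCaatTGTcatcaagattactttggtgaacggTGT
Ereg: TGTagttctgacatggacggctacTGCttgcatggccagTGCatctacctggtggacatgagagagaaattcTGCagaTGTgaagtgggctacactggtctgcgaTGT
Epgn: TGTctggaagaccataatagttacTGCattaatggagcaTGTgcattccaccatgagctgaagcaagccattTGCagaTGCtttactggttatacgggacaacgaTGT
Btc: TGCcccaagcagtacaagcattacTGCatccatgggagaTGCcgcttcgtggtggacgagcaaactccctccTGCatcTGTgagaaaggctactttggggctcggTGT
Tgfa: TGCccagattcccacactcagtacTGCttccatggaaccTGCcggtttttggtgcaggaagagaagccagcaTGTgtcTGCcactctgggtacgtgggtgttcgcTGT
Egf: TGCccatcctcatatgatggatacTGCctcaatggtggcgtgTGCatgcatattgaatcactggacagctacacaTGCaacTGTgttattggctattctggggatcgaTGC
Between successive cysteines lay 7, 4, 10, 1 and 8 codons in Areg, Ereg, Epgn, Btc and Tgfa, and 7, 5, 10, 1 and 8 codons in Egf. The stretch ran from codon 61 to codon 96 of the 162 codons in Ereg, and from codon 982 to codon 1018 of the 1217 codons in Egf, whose precursor is far longer.

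Levels are FPKM, fragments scaled by transcript length and library total, as deposited, so they can be compared between genes. Depth was estimated from the steps of low values at 14133500 fragments in WT and 19168000 fragments in L19M. Intervals are exact 95% intervals of those fragment counts, Poisson for a level and Clopper-Pearson for a ratio, and cover counting error only. With 1 library per genotype, no difference has a replicate check, no test was run, and genotype cannot be told apart from litter, age, sex or preparation. The log2 ratio is that of FPKM + 1, L19M over WT, which understates the difference of low genes. A gene counted as measured at a mean of at least 1 FPKM over both libraries, and as called at 2-fold or more on that scale. Keratinocyte markers of the labelled tissue were abundant. Krt14 (3408 FPKM in WT, 3850 FPKM in L19M) and Krtdap (18400 FPKM in WT, 13728 FPKM in L19M) led the basal and suprabasal lists. Markers of fibroblasts (sum 978 FPKM in WT, 1191 FPKM in L19M) and adipocytes (sum 407 FPKM in WT, 312 FPKM in L19M) were also present. The preparations were therefore not keratinocytes alone. Foxn1 RNA was at 3.74 FPKM in WT against 5.44 FPKM in L19M, and an RNA level does not check the allele.

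None of the 9 measured members was called, neither higher, where 0.532% of all 11841 measured genes were called, nor lower, where 1.71% were. Within that limit the ligands went in both directions, and epiregulin was furthest apart. In such bulk RNA, fewer cells of a type and less RNA per cell cannot be told apart. Of the 7 ligands 5 had log2 ratios above 0 and 2 below, with a median of 0.14. Over the 6 measured ligands, without Egf, 4 were above 0 and the median was 0.22, beside a median of 0.0049 over all measured genes and quartiles of -0.17 and 0.16. The counting interval of the ratio lay above 1 for 2 of the 10 members (Ereg and Hbegf) and below 1 for 3 (Btc, Tgfa and Egfr). Among 11802 measured genes with a fragment estimate, 23.1% lay above 1 and 24.4% below, so counts of 2 and 3 in 10 are near the background. At 1.5-fold on the log2 scale Ereg alone of the members was called, higher, beside 1.99% of measured genes.

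Ereg, epiregulin, a broad-acting ligand that binds Egfr and Erbb4, had 10.1 FPKM in WT (interval 9.24 to 10.9) against 19.5 FPKM in L19M (interval 18.5 to 20.6), from 559 and 1471 estimated fragments. The L19M library was the higher one and the intervals were far apart. That is an FPKM ratio of 1.94, whose counting interval of 1.76 to 2.14 holds 2. Its log2 ratio of 0.89 lay at percentile 99.3 of all measured genes. In level it moved from percentile 52.6 of measured genes in WT to percentile 70.1 in L19M.

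Hbegf, heparin-binding EGF-like growth factor, a ligand released at wound edges and encoded on the minus strand of chromosome 18, had 4.53 FPKM in WT (interval 3.81 to 5.35) against 6.44 FPKM in L19M (interval 5.70 to 7.27). The L19M library was again higher, with a ratio of 1.42 and a counting interval of 1.16 to 1.76. Its log2 ratio of 0.43 lay at percentile 95.4 of measured genes.

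Areg, amphiregulin, an autocrine growth factor of cultured keratinocytes, had 3.20 FPKM in WT (interval 2.33 to 4.28) against 4.16 FPKM in L19M (interval 3.29 to 5.17). The level intervals overlapped, and the ratio of 1.30 had an interval of 0.889 to 1.92 that holds 1, from 45 and 79 estimated fragments. Epgn, epigen, an epithelial ligand of Egfr, had 3.11 FPKM in WT (interval 2.41 to 3.96) against 3.52 FPKM in L19M (interval 2.87 to 4.27). The ratio of 1.13 had an interval of 0.821 to 1.57. Neither ligand was distinguishable between these libraries at this depth, and differences of the size seen for Hbegf lie inside both intervals.

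Btc, betacellulin, which binds Egfr and Erbb4, was the most abundant member in both libraries, and was lower in L19M. It had 73.4 FPKM in WT (interval 70.7 to 76.2) against 53.4 FPKM in L19M (interval 51.4 to 55.4). The ratio of 0.727 had a counting interval of 0.690 to 0.767, and the log2 ratio of -0.45 lay at percentile 6.52 of measured genes. In level, Btc lay at percentile 90.7 of measured genes in WT and at percentile 88.0 in L19M.

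Tgfa, transforming growth factor alpha, the ligand of the waved-1 locus, had 8.60 FPKM in WT (interval 7.85 to 9.39) against 6.23 FPKM in L19M (interval 5.68 to 6.81). The L19M library was lower, with a ratio of 0.724 and an interval of 0.637 to 0.823, close to that of Btc. Egf, the founding ligand, was near absent in both, at 0.0466 FPKM from 3 estimated fragments in WT and 0.0801 FPKM from 7 in L19M. It was the 1 member below the measured limit, and its ratio of 1.72 had an interval of 0.393 to 10.32. A noncoding gene, 6330410L21Rik, overlaps Egf on the other strand and was at 0 FPKM in WT against 0.0142 FPKM in L19M.

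**Figure D1:**
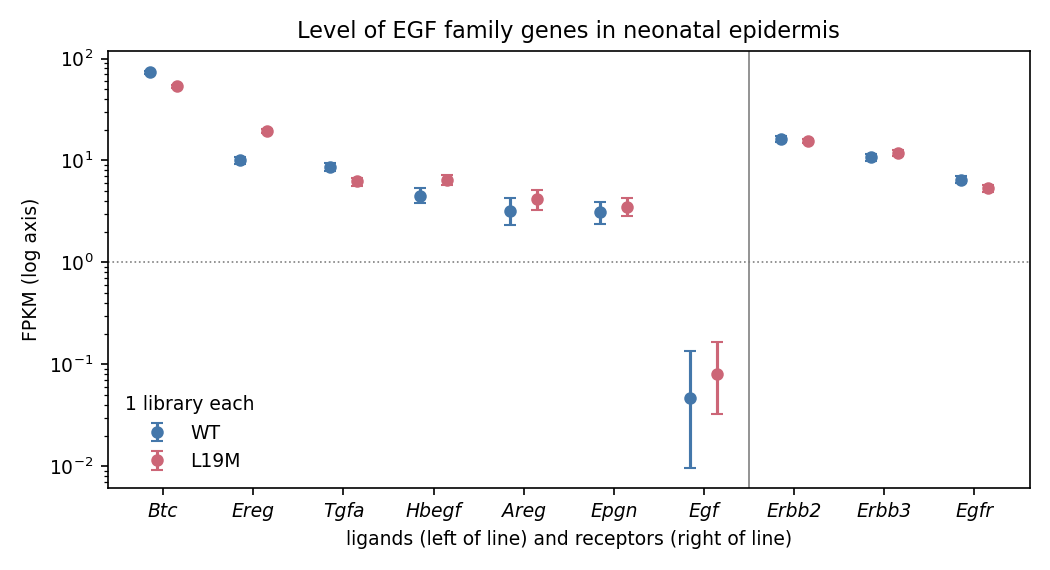
FPKM on a log axis of each ligand and receptor in the WT and the L19M library (1 library each), with exact 95% Poisson intervals of the estimated fragments as bars and the 1 FPKM limit for a measured gene as a dotted line. Btc stood at 73.4 and 53.4 FPKM, Ereg at 10.1 and 19.5 FPKM, and Egf far below 1 FPKM in both.

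Because Btc outweighed the others, the ligand total and the total without Btc differed in direction. The 7 ligands summed to 103.0 FPKM in WT against 93.3 FPKM in L19M, a ratio of 0.907. Without Btc the other 6 summed to 29.6 FPKM in WT against 40.0 FPKM in L19M, a ratio of 1.35. Most of that gap lay in Ereg (10.1 FPKM in WT, 19.5 FPKM in L19M). Tgfa was lower in L19M, and Hbegf, Areg, Epgn and Egf were higher by smaller amounts of FPKM. Btc made up 71.3% of the ligand total in WT and 57.2% in L19M, and Ereg 9.77% in WT and 20.9% in L19M. The share of Tgfa was 8.35% in WT and 6.67% in L19M. Hbegf, Areg and Epgn held between 3.02% and 4.40% each in WT, and between 3.77% and 6.90% each in L19M.

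**Figure D2:**
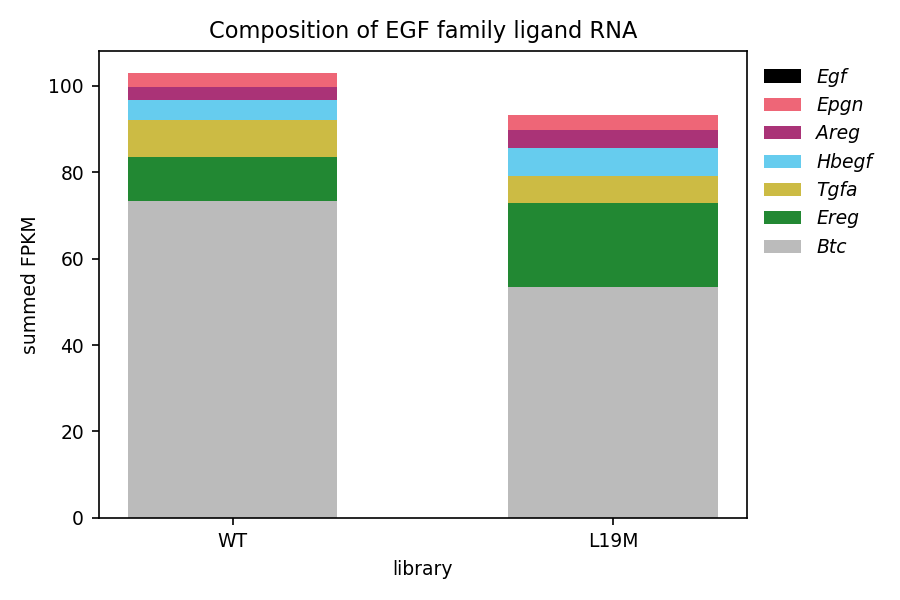
Summed FPKM of the 7 ligands in each library, stacked by gene from an axis that starts at 0. The bars reach 103.0 FPKM in WT against 93.3 FPKM in L19M, with a smaller Btc part and a larger Ereg part in L19M; the Egf part is too thin to see.

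The receptors differed less than the ligands at the extremes. Egfr, the receptor of all 7 ligands, had 6.505 FPKM in WT (interval 5.97 to 7.09) against 5.33 FPKM in L19M (interval 4.90 to 5.78). It was lower in L19M, with a ratio of 0.819, a counting interval of 0.727 to 0.922 and a log2 ratio of -0.25, at percentile 17.8 of measured genes. Erbb2, the partner receptor without a ligand of its own, had 16.2 FPKM in WT (interval 15.3 to 17.2) against 15.5 FPKM in L19M (interval 14.7 to 16.4). Erbb3, the neuregulin receptor, had 10.8 FPKM in WT (interval 9.89 to 11.7) against 11.8 FPKM in L19M (interval 11.1 to 12.6). The ratios were 0.956 for Erbb2, with an interval of 0.883 to 1.03, and 1.099 for Erbb3, with an interval of 0.990 to 1.22, so each interval holds 1 and leaves out a difference beyond 1.5-fold. Summed, the 3 receptors had 33.5 FPKM in WT against 32.7 FPKM in L19M. The annotated ends of Erbb2 and the oppositely transcribed Mien1 (81.4 FPKM in WT, 59.9 FPKM in L19M) overlap by 9 bases, and the sources used here do not say whether the counts used strand.

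**Figure D3:**
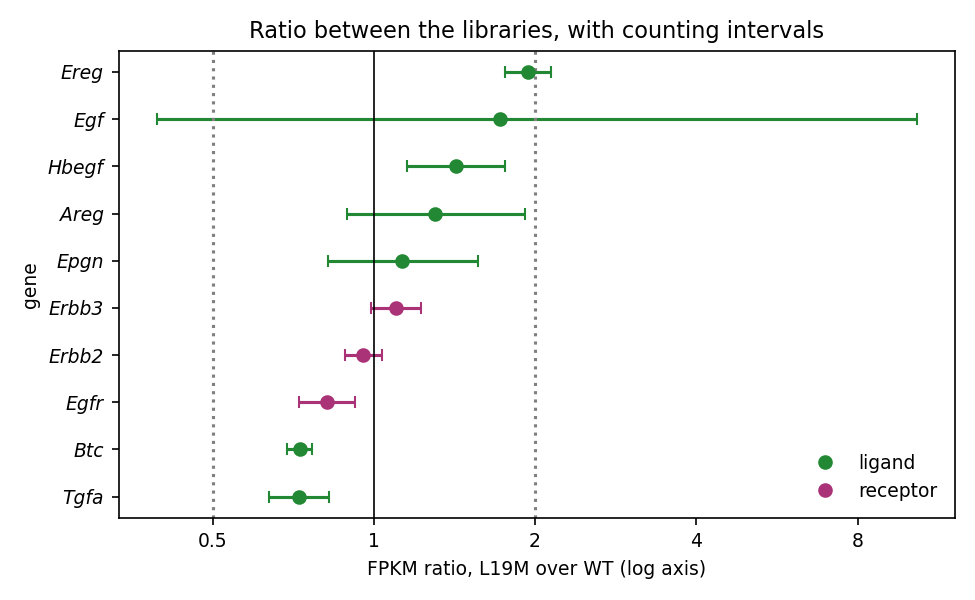
FPKM ratio of L19M over WT on a log axis for each member, ordered by ratio, with exact 95% Clopper-Pearson intervals as bars, a solid line at 1 and dotted lines at 0.5 and 2. Ereg and Hbegf lie above 1 with their intervals, Tgfa, Btc and Egfr below 1, and the interval of Egf runs from 0.393 to 10.32.

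Ordered by FPKM in WT, the members ran Btc, Erbb2, Erbb3, Ereg, Tgfa, Egfr, Hbegf, Areg, Epgn and Egf. In L19M the order was Btc, Ereg, Erbb2, Erbb3, Hbegf, Tgfa, Egfr, Areg, Epgn and Egf. Ereg took rank 4 in WT and rank 2 in L19M, where its interval lay above that of Erbb2. In WT the intervals of Erbb3 and Ereg overlapped, as did those of Ereg and Tgfa, of Hbegf and Areg, and of Areg and Epgn. In L19M the intervals of neighbours from Hbegf down to Epgn overlapped, while those of Hbegf and Tgfa lay above those of Areg and Epgn, and that of Egfr above that of Epgn. With 2 libraries, no likeness of pattern to other genes was computed.

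Of the 7 ligands, 4 lie next to each other on chromosome 5, within 375 kb (chr5:91027517-91402994, mm10), and they did not differ alike. Epgn, Ereg and Areg lie on the plus strand in that order and Btc on the minus strand at the far end. The 1 other gene of the table between them is the noncoding Gm19619, listed at 0 in both libraries. Along the cluster the FPKM ratios were 1.13 for Epgn (chr5:91027517-91035212), 1.94 for Ereg (chr5:91074617-91093649), 1.30 for Areg (chr5:91139615-91148432) and 0.727 for Btc (chr5:91357261-91402994). The counting interval of Btc lay below those of the other members of the cluster, and that of Ereg overlapped that of Areg only.
Of the remaining members, Egf lies on chromosome 3 (minus strand), Tgfa on chromosome 6 (plus strand), Erbb3 on chromosome 10 (minus strand), and Egfr and Erbb2 on chromosome 11 (plus strand).

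Promoter windows of RefSeq (GRCm38.p6), from 250 bases before to 50 bases after a gene start, were matched in 8 windows for 7 members, all but Ereg, Hbegf and Erbb3, and Areg was the 1 member with a searched motif. None of the 8 windows held TGANTCA, the AP-1 motif, which 7.81% of all 32851 windows held. The Areg window held TGACGTCA, the cAMP response element (CRE), which 1.79% of all windows held. Both motifs read the same on either strand, and neither contains the other. The 250 bases before the Areg start (chr5:91139349-91139598, plus strand) are shown for this match, which is in capitals and begins 61 bases before the RefSeq start. That start (91139599) lies 16 bases before the start of Areg in the deposited table.
Areg: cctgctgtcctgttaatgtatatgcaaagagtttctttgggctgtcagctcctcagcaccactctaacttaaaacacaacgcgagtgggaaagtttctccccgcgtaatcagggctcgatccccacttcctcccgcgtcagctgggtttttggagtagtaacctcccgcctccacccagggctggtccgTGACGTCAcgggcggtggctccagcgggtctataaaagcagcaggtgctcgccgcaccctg
The match describes letters in this window and says nothing of binding in these samples.

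Other genes of the pathway were read from 8 lists with 139 entries, of which 138 had a row and 114 were measured. Of these, 4 were called higher, beside 0.532% of all measured genes, and 1 lower, beside 1.71%. In all 5 of 114 were called, beside 2.25% of all measured genes called in either direction. At 1.5-fold the count was 12 of 114, beside 6.06%. Those higher at 2-fold were the stress keratins Krt6a, Krt6b and Krt16 and the factor Etv4, and the lower one was Dusp2. Because the lists were chosen with earlier results of these data known, their counts are no test. Ligands and receptors outside the 10 members were scarce, since none of the neuregulins and Erbb4 was measured. Nrg2 had 1.08 FPKM in WT against 0.556 FPKM in L19M, Nrg4 had 0.985 FPKM in WT against 0.9998 FPKM in L19M, and Erbb4 was listed at 0 in WT with 0.0129 FPKM in L19M; these 3 are given after their values were seen.

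Genes that shed or carry the ligands gave no call among 13 measured, with a median log2 ratio of -0.08. Adam17, the main sheddase of Tgfa, Areg, Ereg and Hbegf, had 11.8 FPKM in WT against 10.2 FPKM in L19M. Adam10, which sheds Btc and Egf, had 18.7 FPKM in WT against 19.96 FPKM in L19M. Timp3, an inhibitor of Adam17, was furthest apart at 15.04 FPKM in WT against 9.39 FPKM in L19M, a ratio of 0.624 (interval 0.567 to 0.686.) Frmd8, which stabilises the sheddase complex, had 9.45 FPKM in WT against 14.1 FPKM in L19M, and Adam8, another metalloprotease, 2.14 FPKM in WT against 3.08 FPKM in L19M. Adam17 and Adam10 were added to the rule's choice after their values were seen.

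Genes that restrain or degrade the receptors gave no call among 20 measured, with a median of 0.0013 and 10 log2 ratios on each side of 0. Socs3, a feedback inhibitor of cytokine signalling, had 2.58 FPKM in WT against 4.43 FPKM in L19M, a ratio of 1.72 (interval 1.34 to 2.22.) The ubiquitin ligases that tag active Egfr followed, with Cblb at 2.78 FPKM in WT against 4.13 FPKM in L19M and Cbl at 2.81 FPKM in WT against 3.81 FPKM in L19M.

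The adaptor and Ras-MAPK list had no call among 23 measured genes and a median of 0.05, with 15 above 0 and 8 below. Nf1, a brake on Ras, had a ratio of 1.76 (interval 1.47 to 2.10), the exchange factor Sos1 1.43 (interval 1.27 to 1.61) and the scaffold Ksr1 1.47 (interval 1.105 to 1.99). The PI3K and STAT list had no call among 16, with a median of 0.17 and 13 above 0. Its members furthest from 0 were Plcg1 (0.36), Pik3r1 (0.35) and Plcg2 (0.34) on the log2 scale.

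The feedback inhibitors of MAPK signalling, many of them known targets of that pathway, had a median log2 ratio of 0.37 over 11 measured genes, 7 above 0 and 4 below. For 6 of them the counting interval lay above 1 and for 1 below, beside 23.1% and 24.4% of all measured genes. By the same count there were 9 above and 1 below of 16 in the PI3K and STAT list. The adaptor and Ras-MAPK list had 10 and 2 of 23, the MAPK response list 10 and 3 of 21. The keratinocyte response list had 6 and 0 of 10. Counts were balanced in the shedding list, with 3 and 3 of 13, and near balanced in the receptor restraint list, with 5 and 4 of 20. Dusp6, a phosphatase of ERK, had 7.88 FPKM in WT against 14.4 FPKM in L19M, a ratio of 1.82 (interval 1.59 to 2.10.) Spry2, a feedback inhibitor of the Ras pathway, had 6.61 FPKM in WT against 9.90 FPKM in L19M, a ratio of 1.498 (interval 1.25 to 1.80.) Dusp2, a phosphatase abundant in immune cells, went the other way and was called lower, at 4.60 FPKM in WT against 1.37 FPKM in L19M, a ratio of 0.297 (interval 0.197 to 0.440.)

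The MAPK response genes had 1 call among 21 measured, with a median of 0.11, 16 above 0 and 5 below. Etv4, an ETS factor made downstream of ERK, had 5.01 FPKM in WT against 11.2 FPKM in L19M, a ratio of 2.23 (interval 1.85 to 2.70), and was called higher. Hmga2, a chromatin protein of growing cells, had 1.85 FPKM in WT against 4.39 FPKM in L19M, with a ratio of 2.38 (interval 1.90 to 2.98), and the related ETS factor Etv5 had 2.54 FPKM in WT against 4.48 FPKM in L19M. The immediate early genes Fos (30.8 FPKM in WT, 35.1 FPKM in L19M) and Egr1 (28.7 FPKM in WT, 30.9 FPKM in L19M), given after their values were seen, were closer to equality. The interval of the Fos ratio, 1.04 to 1.25, still lay above 1. Junb (ratio 1.33, interval 1.26 to 1.40) and Myc (ratio 1.30, interval 1.19 to 1.42), also given after, were higher in L19M. Egr2, of the Egr1 family and also given after, was lower, with 12.5 FPKM in WT against 7.76 FPKM in L19M. Over the list, intervals lay above 1 for 10 genes and below 1 for 3.

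In the list of keratinocyte genes tied to the response to EGF receptor ligands, 10 of 23 were measured. Of these 3 were called higher, beside 0.532% of all measured genes, with a median of 0.37 and 9 of 10 above 0. This list was chosen with earlier results of these data known, so its counts describe the list and are no test of it. The called genes were the stress keratins named above, at ratios of 4.85 for Krt6a, 5.09 for Krt6b and 3.98 for Krt16. Krt6a and Krt6b are near identical, so their values are uncertain singly. Of the other 7 measured genes none was called.

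**Figure D4:**
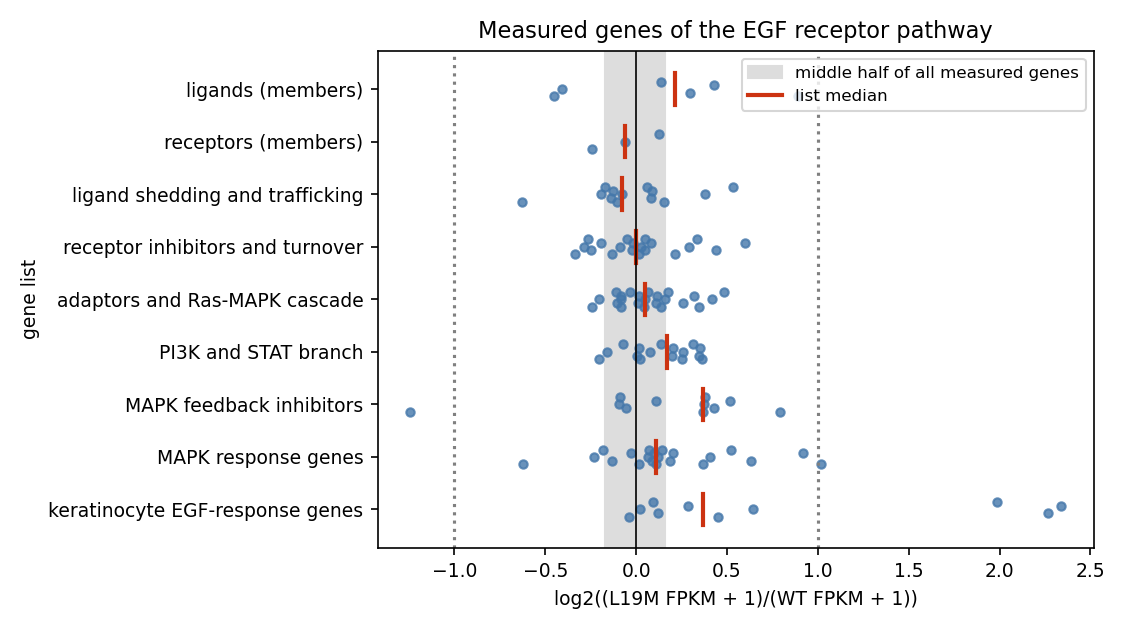
Log2 ratio, L19M over WT with 1 FPKM added, of each measured gene (points) by list, with list medians in red, dotted lines at the 2-fold limits and the middle 50% of all measured genes shaded. The feedback inhibitors and the keratinocyte response genes have medians of 0.37, against 0.0049 for all measured genes.

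Markers of several cell types differed beside these genes. Over all measured genes 1.71% were called lower and 0.532% higher. Summed over 9 hair shaft and matrix markers, FPKM was 173 in WT and 49.96 in L19M, with 6 of 9 called lower. The 8 sebocyte markers summed to 328 FPKM in WT against 229 FPKM in L19M, with 4 of 7 measured called lower. The 8 immune markers summed to 170 FPKM in WT against 70.1 FPKM in L19M, with 3 of 7 measured called lower. Most of that gap lay in the class II genes Cd74 (86.7 FPKM in WT, 26.8 FPKM in L19M) and H2-Ab1 (50.8 FPKM in WT, 11.6 FPKM in L19M). The T cell markers Cd3g (ratio 0.345, interval 0.259 to 0.456) and Cd3e (ratio 0.596, interval 0.352 to 0.999) were also lower in L19M. The myeloid markers Lyz2 (ratio 1.69, interval 1.37 to 2.11) and Aif1 (ratio 1.52, interval 1.01 to 2.32) were higher in L19M. H2-Ab1, Cd3g, Cd3e, Lyz2 and Aif1 are named after their values were seen. The 9 melanocyte and Schwann markers, Schwann cells being a known site of Erbb3 signalling, summed to 195 FPKM in WT against 128 FPKM in L19M, with 1 of 9 called lower. The 7 mast cell and granulocyte markers summed to 106 FPKM in WT against 136 FPKM in L19M, with 1 of 7 called higher. The 6 endothelial markers summed to 13.5 FPKM in WT against 21.4 FPKM in L19M and the 7 fibroblast markers to 978 FPKM in WT against 1191 FPKM in L19M, none called. Most of the fibroblast gap lay in Vim (258 FPKM in WT, 423 FPKM in L19M). Lum was the 1 fibroblast marker lower in L19M (46.7 FPKM in WT, 29.6 FPKM in L19M). Vim and Lum are given after their values were seen. The 7 adipocyte markers summed to 407 FPKM in WT against 312 FPKM in L19M, with 2 of 7 called lower. The 7 basal keratinocyte markers summed to 7663 FPKM in WT against 8262 FPKM in L19M, and the 7 suprabasal ones with a row to 49149 FPKM in WT against 41606 FPKM in L19M, none called. No marker with a row in these lists was at 0 in either library. The part of these cells in the differences of the ligands and pathway genes was not tested.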

How the data were processed

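Poly(A)-selected RNA of neonatal epidermis was sequenced from a directional library kit, per the labels' protocols, in 1 library per genotype. The authors deposited FPKM in columns headed as raw data, log2 values after quantile normalization, and a fold (a ratio, L19M over WT) made from those log2 values, per the file headers and information sheet. The submitters' processing notes list Cufflinks, edgeR and R 3.5.1 without saying what each did. The sources used here name no aligner or counter. The information sheet names mm10 and the notes GRCm39. Of 21937 symbols on the same chromosome in RefSeq GRCm38, 95.7% started within 5000 bases of that gene start, all 10 members included, so coordinates are mm10.

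Fragment numbers were recovered by fitting FPKM × (length − constant) × total to whole numbers over transcripts of at least 1000 bases and up to 20 fragments (constants 203 and 206 bases). 84.1% of such values in WT and 83.6% in L19M came within 0.1 of a whole number. A count of 0 allows 3 fragments, or 0.118 FPKM in WT and 0.0872 FPKM in L19M for 2000 bases. Python 3.11.15 with scipy 1.17.1 was used, and the procedure was tested on simulated libraries. Those libraries held whole Poisson counts only, so that test does not cover the values here that fell away from whole numbers. The members and lists were chosen with earlier results of these data known. Named genes were all members, Foxn1 and the 3 measured genes of each list with the largest absolute log2 ratio. The most abundant marker of a marker list is given for the keratinocyte, immune and fibroblast lists only. Genes that overlap or neighbour a member are also named, and others beyond this rule are marked as given after their values were seen. Alternatives were pseudocounts of 0.1 and 0.5, the deposited log2 values, 2 rescalings, other limits on low values and a 1.5-fold limit. Protein sequences are not used here.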

Additional observations from a re-analysis of the deposited data

How the results depend on the processing

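Member ratios were recomputed under pseudocounts of 0.1 and 0.5, the deposited normalized values, the median ratio set to 1 and a common upper quartile. The log2 ratio of each of the 10 members moved by less than its counting interval (50 values) and kept its sign. A pseudocount shared by both libraries cannot change a sign. The median rescaling is a log2 shift of -0.006, too small to change the sign of any member. The log2 ratio of Ereg ranged from 0.89 to 0.95. No member was called higher or lower under any alternative at 2-fold. At 1.5-fold, 1 member (Ereg) was called higher, beside 1.99% of measured genes. In the pathway lists 12 genes were called in place of 5, beside 6.06% of measured genes in place of 2.25%. The ratio of summed ligand FPKM was 0.907 and turned to 1.35 without Btc, since the sum rests on that gene. The gap without Btc lay mostly in Ereg. No paired analysis was possible because each genotype has 1 library, and for the same reason no library could be left out. Depth limits Egf, Areg and Epgn most, whose intervals hold 1.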
